A study of Mus musculus with 26 samples.

Results

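Brown adipose tissue (BAT) of the mice in this study was examined for 10 genes that carry the cyclic AMP (cAMP) signal to transcription: the transcription factor genes Creb1, Crem, Atf1 and Atf2, the coactivator genes Crtc1, Crtc2 and Crtc3, and the salt-inducible kinase genes Sik1, Sik2 and Sik3. They were chosen by name from the 50686 genes in the table of read counts, and all 10 had enough counts to be among the 17286 genes tested. The tissue came from 26 individually housed C57BL/6J males of 12 to 16 weeks in 4 groups. Of these mice, 14 were fat-specific Afadin knockouts (FAKO), in which Cre recombinase under the Adiponectin promoter acts on an Mllt4 flox/flox allele, and 12 were control littermates. Mllt4 is the older name of Afdn, the gene of the scaffold protein Afadin. All mice spent 2 weeks at thermoneutrality, given as 30 °C in the sample labels and as 29 °C in the methods. The tissue of 7 control and 7 FAKO mice was taken then, and that of 5 control and 7 FAKO mice after a further 6 h at 5 °C. The Adiponectin promoter is active in white as well as brown adipocytes and not in the vessels, nerves or immune cells of the depot.

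In a brown adipocyte, noradrenaline released by sympathetic nerves in the cold raises cAMP through β-adrenergic receptors, and protein kinase A is switched on. The kinase phosphorylates CREB1, CREM and ATF1, which bind the cAMP response element of target genes, while ATF2 is activated through p38 MAP kinase and acts on the genes of Ucp1 and Pgc-1α. CRTC proteins are held in the cytoplasm by SIK kinases and 14-3-3 proteins until protein kinase A inhibits the SIKs, and Crem and Sik1 are themselves classical cAMP target genes that close a negative feedback loop.

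Total counts per mouse ran from 12705969 to 25732258. The 73 pairs of mice of 1 group all differed by more than sampling noise (chi-square per gene of 4.83 or more). Brown adipocyte markers were high in every library, with a summed level of 6695 to 8438 CPM (counts scaled to the TMM-adjusted library size) at 30 °C and 24840 to 31575 CPM at 5 °C. The 6 markers did not all move with that sum. In the cold, 3 were called higher and 1 lower in control mice, and 3 higher and 2 lower in mice labelled FAKO. Afdn was at 151 to 214 CPM in control mice and 154 to 231 CPM in mice labelled FAKO at 30 °C, a log2 difference of -0.01 (SE 0.08, adjusted p = 0.992, edgeR with Benjamini-Hochberg). At 5 °C it was at 67.9 to 79.2 CPM and 53.3 to 65.3 CPM, without overlap, where 1.11% of all genes had groups that did not overlap. The paper reports from blots that the rise of Afadin protein in the cold was smaller in FAKO mice. It also shows blots of Afadin at thermoneutrality and RT-qPCR of Mllt4 in both genotypes. It states that more Mllt4 RNA did not account for the rise of the protein. Kng1, the kininogen gene, named after its values were seen, separated the genotypes as labelled, with 0 to 1 counts per control mouse and 123 to 389 counts per mouse of the other genotype. Since the Afdn counts at 30 °C give no check of the genotype, the mice are called by their label, "labelled FAKO". 1 control library at 30 °C, that of mouse 7, stood apart, with 14.3% mitochondrial counts against a group median of 37.2%, a skeletal muscle marker sum of 4970 CPM against 57.1 CPM, and the lowest correlation with its group (median r 0.958). With TMM scaling, where its factor was 1.29, it had the lowest Creb1, Crem, Atf1 and Atf2 of its group. With library size alone, its Creb1 and Crem were still the lowest. Its Atf1 was then at 10.4 CPM against 9.21 CPM in mouse 6, and its Atf2 at 99.0 CPM against 95.3 CPM in mouse 4. The cold responses of control mice are also given without mouse 7. Mice labelled FAKO at 30 °C had a median of 28.3% mitochondrial counts and a median TMM scaling factor of 1.17, against 0.993 in control mice. At 5 °C, mice 24 and 25, labelled FAKO, had the lowest factors (0.769 and 0.759) and muscle sums of 3400 and 6748 CPM. The part of these differences was not tested.

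After 6 h at 5 °C, 6 of the 10 genes rose in control mice and 0 fell: Crem, Atf1, Atf2, Sik1, Sik2 and Sik3 (edgeR's quasi-likelihood test, adjusted p below 0.05 over all genes tested). The response of this tissue to cold was broad, so that 31.6% of all genes tested rose and 33.4% fell, together 65.0%. The median log2 fold change of the 10 genes was 0.67, against -0.01 for all genes. In mice labelled FAKO the same 6 genes rose and Crtc3 fell, in a comparison in which 33.7% of all genes rose and 34.9% fell, together 68.6%, and the median was 0.68 against -0.03. In control mice 5 of the 10 genes had CPM values that did not overlap between the temperatures, where 46.4% of all genes did so, and in mice labelled FAKO 6 of 10, where 40.4% did. The share of genes called was therefore close to the background, while the calls were nearly all in the upward direction. The 10 genes were chosen with earlier results of these data known, so their direction and median are a description and not a test. Because these are bulk tissue values, fewer cells of a type and less RNA per cell cannot be told apart.

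**Figure D1:**
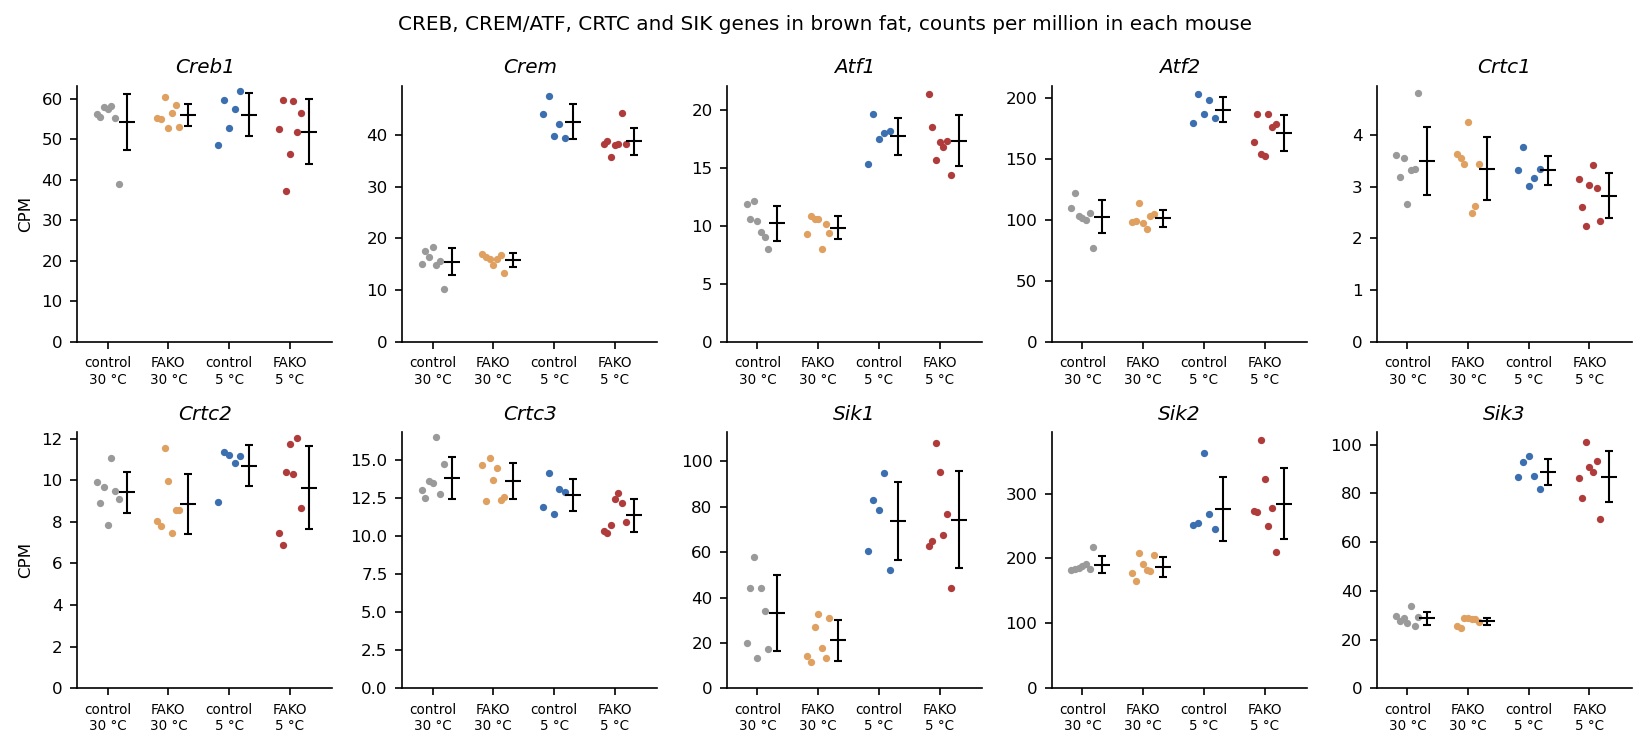
CPM (TMM-scaled, axis from 0) of each of the 10 genes in each mouse, with the mean and SD of each group beside the points. Crem, Atf1, Atf2 and Sik3 are higher in all 12 mice at 5 °C than in all 14 at 30 °C, and Sik2 is so within each genotype. Sik1 is scattered at 30 °C from 11.5 to 58.0 CPM. Creb1, Crtc1 and Crtc2 lie at similar levels in the 4 groups, and Crtc3 was called lower at 5 °C in mice labelled FAKO.

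Among the transcription factors, Crem (ENSMUSG00000063889.16, mm10 chr18:3266048-3337748, minus strand) had the largest response to cold. Crem encodes both activators and, from an internal promoter, the cAMP-inducible repressor ICER, and gene counts do not separate these isoforms. The 7 control mice at 30 °C had 15.01, 17.6, 16.4, 18.4, 14.8, 15.7 and 10.3 CPM. At 5 °C the 5 control mice were at 43.9, 47.6, 39.8, 42.0 and 39.5 CPM. Those labelled FAKO had 17.1, 16.4, 16.0, 14.9, 16.0, 16.8 and 13.3 CPM at 30 °C and 38.2, 38.8, 35.7, 38.0, 38.2, 44.3 and 38.2 CPM at 5 °C. No mouse at 30 °C reached the lowest mouse at 5 °C in either genotype, and the lowest value of all was that of mouse 7. Crem rose 2.75-fold in control mice (log2 fold change 1.46, SE 0.09, adjusted p = 3.55e-13, edgeR with Benjamini-Hochberg) and 2.46-fold in mice labelled FAKO (1.30, SE 0.09, adjusted p = 7.19e-13). Without mouse 7 the log2 fold change in control mice was 1.36.

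Atf2 and Atf1 rose as well, by smaller factors. Atf2 (ENSMUSG00000027104.18, chr2:73816509-73892639, minus strand), the target of p38 MAP kinase, was at 110, 122, 103, 102, 100.3, 106 and 76.7 CPM in control mice at 30 °C and at 180, 204, 187, 198 and 184 CPM at 5 °C. Mice labelled FAKO were at 98.0, 99.2, 114, 97.3, 92.8, 103 and 105 CPM at 30 °C and at 164, 187, 154, 153, 187, 176 and 179 CPM at 5 °C. The temperatures did not overlap in either genotype, and the rise was 1.85-fold in control mice (log2 fold change 0.89, SE 0.08, adjusted p = 1.82e-10, edgeR with Benjamini-Hochberg) and 1.69-fold in mice labelled FAKO (0.76, SE 0.07, adjusted p = 7.90e-10). Atf1 (ENSMUSG00000023027.12, chr15:100227819-100261244, plus strand), a close relative of Creb1 that binds the same element, was at 8.03 to 12.1 CPM (median 10.4) in control mice at 30 °C and at 15.3 to 19.6 CPM (median 18.0) at 5 °C. Mice labelled FAKO were at 8.03 to 10.8 CPM (median 10.1) and 14.4 to 21.4 CPM (median 17.2). All mice at 5 °C were again above all at 30 °C. Atf1 rose 1.73-fold (log2 fold change 0.79, SE 0.10, adjusted p = 1.22e-07) and 1.76-fold (0.82, SE 0.09, adjusted p = 1.62e-08 in the same test). Without mouse 7, the log2 fold changes in control mice were 0.81 for Atf2 and 0.72 for Atf1.

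Creb1 (ENSMUSG00000025958.14, chr1:64532645-64604548, plus strand), the best-known factor of the family and one regulated chiefly by phosphorylation, did not pass the test in either genotype with TMM scaling. It was at 56.2, 55.5, 58.0, 57.5, 58.1, 55.3 and 38.9 CPM in control mice at 30 °C and at 48.6, 59.6, 52.8, 57.3 and 61.9 CPM at 5 °C. Apart from mouse 7 at 38.9 CPM, the values at 30 °C lay within the range at 5 °C. The log2 fold change was 0.05 in control mice (95% interval -0.16 to 0.25, adjusted p = 0.688, edgeR with Benjamini-Hochberg), and -0.04 without mouse 7. In mice labelled FAKO, with 52.7 to 60.4 CPM at 30 °C and 37.3 to 59.7 CPM at 5 °C, it was -0.11 (95% interval -0.29 to 0.08, adjusted p = 0.298). With library size alone as the scaling, the value in control mice was -0.06. Creb1 passed the test as lower in mice labelled FAKO with library size alone (-0.41, adjusted p = 0.00304, edgeR, with a median of all genes of -0.34) and with upper-quartile factors (-0.26, adjusted p = 0.0154, with a median of -0.18).

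Of the 3 CRTC coactivators, Crtc3 alone passed the test with TMM scaling, in mice labelled FAKO, and the calls of Crtc1 and Crtc3 moved with the scaling. Crtc2 (ENSMUSG00000027936.18, chr3:90254163-90264125, plus strand) was at 7.86 to 11.0 CPM (median 9.47) in control mice at 30 °C and at 8.96, 11.4, 11.2, 10.8 and 11.2 CPM at 5 °C, so that the temperatures overlapped and 4 of the 5 cold mice were at 10.8 CPM or above. Its log2 fold change was 0.18 (95% interval -0.08 to 0.45, adjusted p = 0.208, edgeR with Benjamini-Hochberg) in control mice and 0.13 (-0.11 to 0.37, adjusted p = 0.345) in mice labelled FAKO, the latter at -0.20 with library size alone. Crtc3 (ENSMUSG00000030527.15, chr7:80586627-80688877, minus strand) was at 12.5 to 16.5 CPM (median 13.5) in control mice at 30 °C and at 11.5 to 14.1 CPM (median 12.9) at 5 °C. In mice labelled FAKO it had 14.6, 12.3, 15.1, 13.7, 14.4, 12.3 and 12.5 CPM at 30 °C and 10.3, 10.2, 10.7, 12.4, 12.8, 12.1 and 10.9 CPM at 5 °C. The 2 temperatures overlapped in the mice labelled FAKO, with 2 of the cold mice within the range at 30 °C. Crtc3 fell by 0.26 on the log2 scale in mice labelled FAKO (SE 0.08, adjusted p = 0.00373, edgeR with Benjamini-Hochberg), and its log2 fold change in control mice was -0.12 (95% interval -0.29 to 0.05, adjusted p = 0.201), which passed the test with upper-quartile scaling (-0.23, adjusted p = 0.0178). With library size alone and with upper-quartile factors, Crtc3 stood at -0.58 and -0.42 in mice labelled FAKO, and at -0.25 in control mice with library size alone. Crtc1 (ENSMUSG00000003575.13, chr8:70382355-70439579, minus strand), the member best known from neurons, rested on only 30 to 105 counts per mouse and had mean levels of 3.497, 3.32, 3.35 and 2.82 CPM in control mice at 30 °C and 5 °C and in mice labelled FAKO at 30 °C and 5 °C. Its log2 fold changes were -0.08 (95% interval -0.38 to 0.21, adjusted p = 0.631) and -0.24 (-0.51 to 0.03, adjusted p = 0.108 in the same test), and the former was -0.0075 without mouse 7, which had the highest Crtc1 of its group. The latter passed the test with library size alone (-0.55, adjusted p = 0.00446, edgeR), with upper-quartile factors (-0.40, adjusted p = 0.00897) and with at least 10 counts in every mouse (-0.30, adjusted p = 0.0417). It also passed the test at -0.33 without mouse 12 and at -0.32 without mouse 13 of the mice labelled FAKO at 30 °C.

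All 3 SIK genes rose. Sik3 (ENSMUSG00000034135.15, chr9:46012820-46224194, plus strand), a broadly expressed member, had the highest log2 fold change of the 10 genes in control mice. It was at 29.7, 27.6, 28.8, 26.7, 33.8, 25.5 and 29.5 CPM in control mice at 30 °C and at 86.7, 92.9, 95.1, 87.0 and 81.7 CPM at 5 °C. In mice labelled FAKO it was at 25.7, 24.9, 28.9, 28.7, 28.3, 28.3 and 27.3 CPM at 30 °C and at 86.3, 78.2, 101.1, 90.7, 88.7, 93.2 and 69.3 CPM at 5 °C. The lowest cold mouse was about as far above the highest mouse at 30 °C as that mouse was above 0. The rise was 3.08-fold in control mice (log2 fold change 1.62, SE 0.08, adjusted p = 6.66e-16, edgeR with Benjamini-Hochberg) and 3.16-fold in mice labelled FAKO (1.66, SE 0.07, adjusted p = 9.79e-17). Without mouse 7 the log2 fold changes in control mice were 1.61 for Sik3, 1.03 for Sik1 and 0.55 for Sik2, and those of Crtc2 and Crtc3 were 0.15 and -0.13. Among all genes tested the absolute log2 fold change of Sik3 ranked at the 89.5th percentile in control mice.

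Sik1 (ENSMUSG00000024042.6, chr17:31844250-31855804, minus strand), the member induced by cAMP, was the most variable. It was at 19.8, 44.1, 58.0, 13.5, 44.3, 34.1 and 17.5 CPM in control mice at 30 °C and at 60.7, 83.0, 78.5, 94.9 and 52.0 CPM at 5 °C. In mice labelled FAKO it was at 14.2, 11.5, 26.8, 33.0, 17.6, 13.5 and 31.2 CPM at 30 °C and at 62.8, 64.9, 108, 95.5, 67.8, 76.7 and 44.4 CPM at 5 °C. The temperatures overlapped in control mice, where mouse 3 at 30 °C was above the lowest cold mouse, and did not overlap in mice labelled FAKO. Sik1 rose 2.24-fold in control mice (log2 fold change 1.16, SE 0.31, adjusted p = 0.00175, edgeR with Benjamini-Hochberg) and 3.52-fold in mice labelled FAKO (1.82, SE 0.29, adjusted p = 4.65e-06). The coefficient of variation of its CPM at 30 °C was 50.5% in control mice and 42.6% in mice labelled FAKO, at the 98.6th and 98.9th percentile of the 8191 and 8132 genes with a mean of at least 10 CPM, whose medians were 9.97% and 8.18%. At 5 °C it was 23.4% and 28.8%, at percentiles 95.6 and 91.1 of 7841 and 7930 such genes, whose medians were 7.95% and 12.4%.

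Sik2 (ENSMUSG00000037112.16, chr9:50892801-51009073, minus strand), the SIK long known from adipose tissue, lies on the same chromosome as Sik3. It was at 182, 183, 186, 189, 192, 184 and 218 CPM in control mice at 30 °C and at 252, 254, 362, 269 and 245 CPM at 5 °C. Mouse 7 was the highest at 30 °C and mouse 18 stood above the other cold mice, but the temperatures did not overlap. Mice labelled FAKO were at 165 to 208 CPM (median 182) and 211 to 383 CPM (median 273), again without overlap. Sik2 rose 1.45-fold (log2 fold change 0.54, SE 0.11, adjusted p = 9.24e-05, edgeR with Benjamini-Hochberg) and 1.52-fold (0.60, SE 0.10, adjusted p = 6.29e-06). Of its 9539 exonic bases, 1429 are shared with Ppp2r1b on the opposite strand. The libraries are stranded, but the strand setting of the counting is not given in the sources used here, so reads of the shared stretch may have counted for neither or either gene. Crem likewise shares 472 of 5895 exonic bases with Gm6225 on the opposite strand, and Atf2 shares 167 of 8187 with Gm27421 on its own strand. Ppp2r1b, named after its values were seen, rose by 0.60 in control mice and, with the FAKO label, by 0.88 on the log2 scale.

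**Figure D2:**
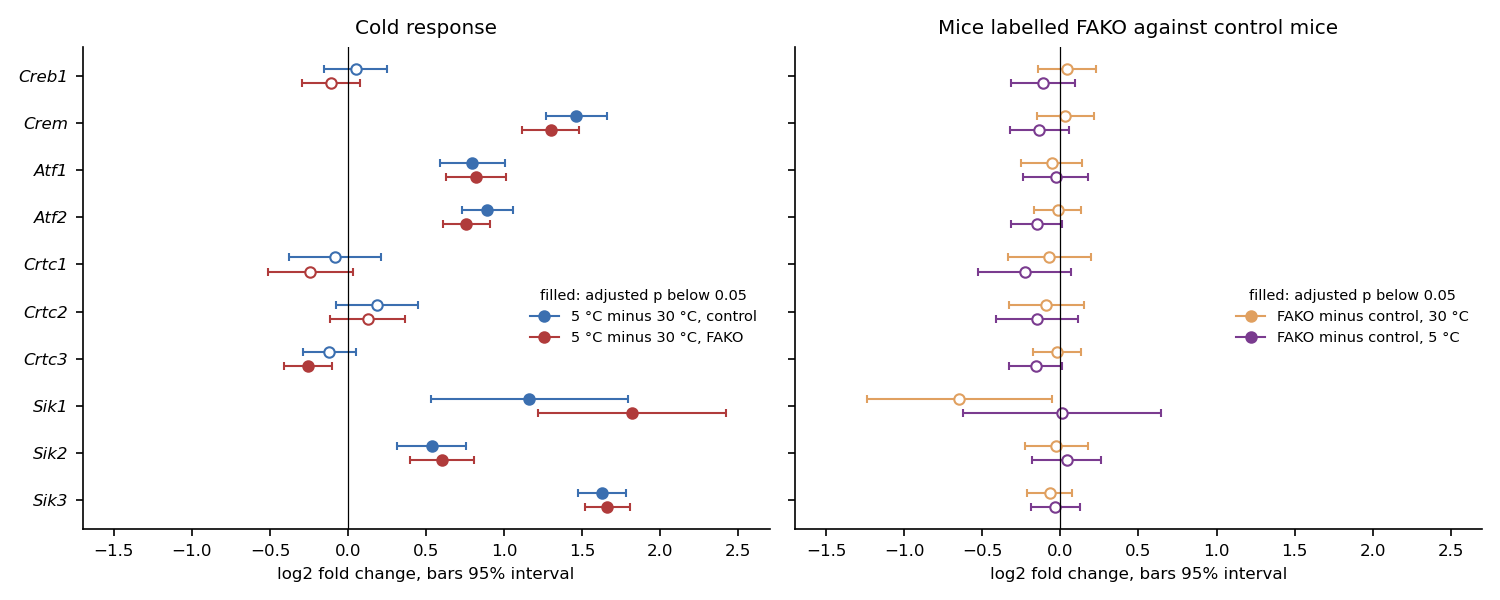
Log2 fold changes of the 10 genes with 95% intervals from edgeR's quasi-likelihood model, for cold against 30 °C in each genotype (left) and for mice labelled FAKO against control mice at each temperature (right). Filled points passed the adjusted p threshold of 0.05. The cold responses reach 1.62 in control mice and 1.82 in mice labelled FAKO, whereas 0 of the 20 points on the right are filled, and the interval of Sik1 is the widest in each comparison.

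Several tissue readings moved with the cold beside these genes. Their counts of calls stand beside the 65.0% of all genes tested that were called in control mice and the 68.6% in mice labelled FAKO. Of the 4 nuclear RNAs (Malat1, Neat1, Kcnq1ot1, Meg3), 3 rose and 0 fell in control mice, and their summed level went from between 8951 and 10573 CPM to between 14840 and 16273 CPM. In mice labelled FAKO, 2 rose and 1 fell, and the sum was 10423 to 11779 CPM at 30 °C and 10340 to 13577 CPM at 5 °C. Of 4 endothelial markers, 3 rose and 1 fell in each genotype (391 to 577 CPM summed at 30 °C and 576 to 783 CPM at 5 °C). The 3 neutrophil markers tested rose in both, from summed levels of 0.349 to 3.58 CPM to 3.09 to 44.2 CPM, and Ly6g, the marker of that list not tested, was listed at or near 0. The 4 red blood cell genes rose in mice labelled FAKO, with 0 called in control mice. Of 5 macrophage markers, 1 rose and 2 fell in control mice and 3 rose and 2 fell in mice labelled FAKO (110.1 to 177 CPM summed at 30 °C and 132 to 197 CPM at 5 °C). Of 4 lymphocyte markers, 2 fell in control mice and 1 in mice labelled FAKO (1.91 to 4.65 CPM and 0.474 to 10.9 CPM). Of 4 fibroblast and preadipocyte markers, 1 fell in control mice, and 1 rose and 1 fell in mice labelled FAKO (347 to 859 CPM and 334 to 664 CPM), while 1 of 3 Schwann cell markers fell in mice labelled FAKO (6.63 to 12.5 CPM and 3.49 to 12.8 CPM). Of 5 skeletal muscle markers 0 passed the test, and their sum ran from 0.772 to 6748 CPM across all mice. The part of these readings in the changes of the 10 genes was not tested.

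Promoter sequences from RefSeq (build GRCm38.p6, 250 bases before to 50 after the start) were matched for 7 of the 10 genes: Creb1, Atf1, Atf2, Crtc1, Crtc3, Sik2 and Sik3. Those of the 4 matched genes that rose in the cold are printed with that of Creb1, which did not pass the test, because CREB-family proteins bind a motif that can be read in them. The core TGACG was searched on both strands (CGTCA on the other), as was the full palindrome TGACGTCA, which contains it. Capitals mark the cores. Atf1 lies at chr15:100227609-100227908 (plus strand), Sik2 at chr9:51009024-51009323 (minus strand), Sik3 at chr9:46012570-46012869 (plus strand), Atf2 at chr2:73892590-73892889 (minus strand) and Creb1 at chr1:64532554-64532853 (plus strand), each 5′ to 3′ on the strand of its gene.
Atf1: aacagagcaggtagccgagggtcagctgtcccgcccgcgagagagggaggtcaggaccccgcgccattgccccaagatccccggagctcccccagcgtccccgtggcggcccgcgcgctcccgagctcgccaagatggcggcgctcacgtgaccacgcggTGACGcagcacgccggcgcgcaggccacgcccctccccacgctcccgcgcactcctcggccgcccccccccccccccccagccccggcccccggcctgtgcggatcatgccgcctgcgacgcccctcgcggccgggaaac
Sik2: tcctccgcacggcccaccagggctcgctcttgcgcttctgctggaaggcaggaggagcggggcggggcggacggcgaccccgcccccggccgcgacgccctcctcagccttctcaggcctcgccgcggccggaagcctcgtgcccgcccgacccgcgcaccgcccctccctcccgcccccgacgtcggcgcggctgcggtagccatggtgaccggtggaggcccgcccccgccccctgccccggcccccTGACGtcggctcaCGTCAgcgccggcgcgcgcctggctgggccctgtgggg
Sik3: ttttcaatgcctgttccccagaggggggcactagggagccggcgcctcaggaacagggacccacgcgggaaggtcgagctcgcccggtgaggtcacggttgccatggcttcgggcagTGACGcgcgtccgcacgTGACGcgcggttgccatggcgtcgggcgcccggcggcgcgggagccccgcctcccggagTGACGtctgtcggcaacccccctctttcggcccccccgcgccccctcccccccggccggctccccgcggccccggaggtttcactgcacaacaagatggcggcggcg
Atf2: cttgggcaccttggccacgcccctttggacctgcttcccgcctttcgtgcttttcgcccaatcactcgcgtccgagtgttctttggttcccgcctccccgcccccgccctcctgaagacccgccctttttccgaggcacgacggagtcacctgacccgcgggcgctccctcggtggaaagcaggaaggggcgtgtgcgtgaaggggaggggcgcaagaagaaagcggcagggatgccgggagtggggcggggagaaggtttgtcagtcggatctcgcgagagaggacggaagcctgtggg
Creb1: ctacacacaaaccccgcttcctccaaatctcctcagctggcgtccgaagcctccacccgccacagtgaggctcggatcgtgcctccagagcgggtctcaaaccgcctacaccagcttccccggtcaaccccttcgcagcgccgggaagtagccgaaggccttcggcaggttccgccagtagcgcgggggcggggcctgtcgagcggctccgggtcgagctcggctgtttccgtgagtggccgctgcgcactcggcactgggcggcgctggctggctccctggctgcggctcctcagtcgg

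The core was present once in the Atf1 promoter, at position -90 from the start, 2 times in that of Sik2, at -1 and on the opposite strand at 13, and 3 times in that of Sik3, at -133, -116 and -57. It was not found in the windows of Creb1, Atf2, Crtc1 or Crtc3, and the full palindrome was found in 0 of the 7. Of 32851 mouse promoters of the same length, 20.8% held at least 1 core, 5.0% at least 2, 1.03% at least 3 and 1.79% the full palindrome. These shares are of all promoters, not of promoters matched for their content of G and C. That content was 66.0% to 80.0% in the 7 windows, with Sik2 at 80.0% and Sik3 at 73.7%. A match is a description of these letters only.

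Mice labelled FAKO were compared with control mice at each temperature, which asks whether the level of these genes differed with the label. At 30 °C, 0 of the 10 genes passed the test, where 0.0810% of all genes did, and 0 had groups that did not overlap, where 0.249% of all genes did. Sik1 was the 1 gene with an unadjusted p below 0.05. Its median was 34.1 CPM in control mice and 17.6 CPM in mice labelled FAKO, with 4 control mice above all the mice labelled FAKO and 3 within their range. The log2 fold change was -0.65 (SE 0.29, 95% interval -1.24 to -0.05, adjusted p = 0.598, edgeR with Benjamini-Hochberg), and it was between -0.79 and -0.45 under the alternatives, with an adjusted p of 0.330 to 0.880. The other 9 genes had log2 fold changes of -0.09 to 0.04.

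At 5 °C, 0 of the 10 genes passed the test (0 also at an unadjusted p below 0.05), where 0.139% of all genes did, and 0 had groups that did not overlap, where 1.11% did. The log2 fold changes ran from -0.23 for Crtc1 (95% interval -0.53 to 0.07) to 0.04 for Sik2 (-0.18 to 0.26), with a median of -0.12 against 0.02 for all genes. Crem was at -0.13 (-0.33 to 0.06), Atf2 at -0.15 (-0.32 to 0.01) and Sik3 at -0.03 (-0.19 to 0.12). Sik1 was at 0.01 (-0.62 to 0.64), the widest interval of the 10. The nuclear RNA sum was lower in mice labelled FAKO in this comparison, at 10340 to 13577 CPM against 14840 to 16273 CPM, and its part was not tested.

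Whether the response to cold differed with the label was asked with an interaction term. It passed the test for 0 of the 10 genes (0 at an unadjusted p below 0.05), where 1.16% of all genes did. For Sik1 it was 0.655 on the log2 scale (SE 0.42, 95% interval -0.22 to 1.53, adjusted p = 0.466, edgeR with Benjamini-Hochberg), the largest of the 10. For Crem it was -0.17 (95% interval -0.43 to 0.10, adjusted p = 0.562), and for Crtc3, which fell in mice labelled FAKO, it was -0.14 (-0.36 to 0.09, adjusted p = 0.584). DESeq2 also called 0 of the 10 genes for the label at either temperature and for the interaction. The call for Crtc3 in 1 genotype is thus not shown to differ from the value in the other.

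**Figure D3:**
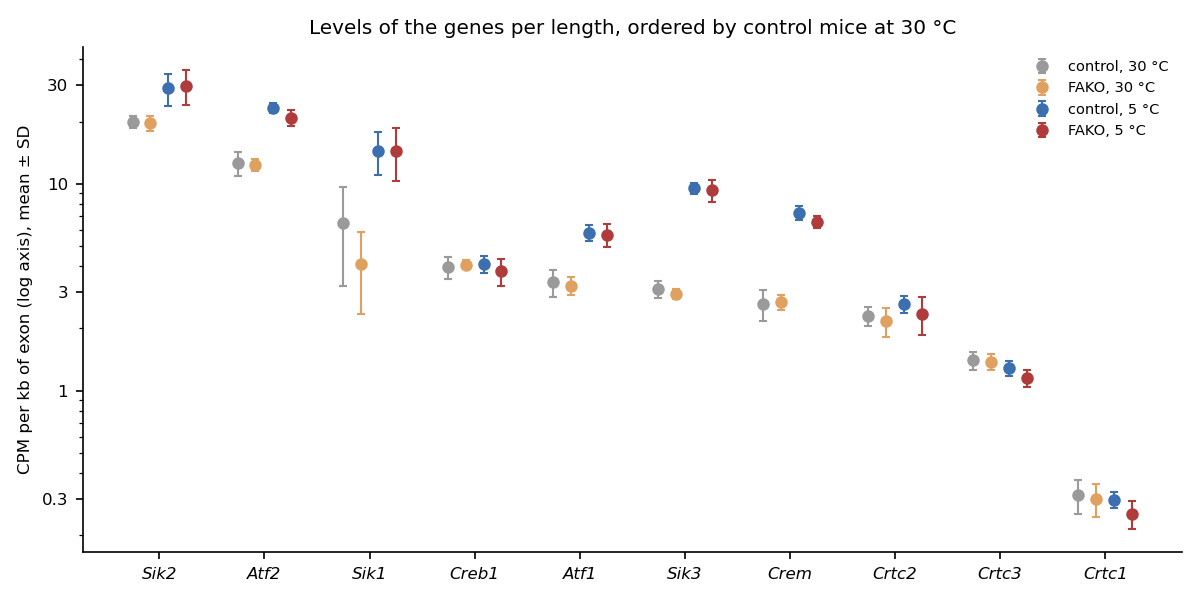
Mean CPM per kilobase of merged exon (log axis) with SD for each gene and group, ordered by control mice at 30 °C. Sik2 is highest at 19.97 and Crtc1 lowest at 0.313 in control mice at 30 °C, and Sik3 and Crem lie above Atf1 and Creb1 at 5 °C.

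Levels of different genes were set side by side as CPM per kilobase of merged exon. In control mice at 30 °C, Sik2 was highest with 19.97 ± 1.32 (SD, n = 7), followed by Atf2 with 12.6 ± 1.66, Sik1 with 6.44 ± 3.25, Creb1 with 3.95 ± 0.498, Atf1 with 3.34 ± 0.485, Sik3 with 3.09 ± 0.288, Crem with 2.62 ± 0.447, Crtc2 with 2.30 ± 0.240, Crtc3 with 1.40 ± 0.141 and Crtc1 with 0.313 ± 0.0590. The ranges of neighbours in this order overlapped from Atf2 down to Crtc2, so that neighbours in this stretch are not ordered beyond the spread between mice. Atf2, at 9.36 or more, overlapped Sik1 alone and was above Creb1 (at most 4.23), Atf1, Sik3, Crem and Crtc2. At 5 °C the order in control mice was Sik2 (28.98 ± 5.12, SD, n = 5), Atf2 (23.3 ± 1.22), Sik1 (14.4 ± 3.37), Sik3 (9.52 ± 0.573), Crem (7.22 ± 0.566), Atf1 (5.79 ± 0.514), Creb1 (4.08 ± 0.389), Crtc2 (2.61 ± 0.243), Crtc3 (1.29 ± 0.108) and Crtc1 (0.297 ± 0.0252). Of these neighbours, Sik1 and Sik3 alone overlapped. Sik3 and Crem thus moved from below Creb1 to above it. In mice labelled FAKO the order of the means was the same as in control mice at each temperature. At 5 °C, however, neighbours among the mice labelled FAKO overlapped from Sik2 down to Atf1, and Creb1 overlapped Crtc2. At 30 °C their Sik1 (4.11 ± 1.75) and Creb1 (4.07 ± 0.201) had nearly the same mean. With the longest transcript as the length, Sik2, Atf2 and Sik1 remained the highest 3 in control mice, and Crem stood at 5.28 and 14.5, next to Creb1 at 6.48 and 6.70. In mice labelled FAKO at 30 °C, Sik1 then stood below Creb1 and Crem.

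Ratios of these levels within each mouse do not depend on the scaling between libraries. Crem stood at 0.595 to 0.744 of Creb1 (median 0.661) in control mice at 30 °C and at 1.49 to 2.11 times Creb1 (median 1.76) at 5 °C. In mice labelled FAKO the ratio was 0.583 to 0.721 (median 0.661) and 1.4998 to 2.23 (median 1.69). No mouse at 30 °C had more Crem than Creb1, and every mouse at 5 °C did. Sik1 made up 10.4% to 33.4% (median 23.2%) of the summed SIK level in control mice and 10.0% to 21.8% (median 13.4%) at 30 °C in those labelled FAKO, and 22.7% to 33.0% (median 24.9%) and 22.7% to 29.9% (median 26.9%) at 5 °C. Within the CRTC genes, Crtc2 held over 50% of the summed level in every mouse, with 52.0% to 60.4% over both genotypes at 30 °C and 57.1% to 66.4% at 5 °C, when merged exons gave the length. With the longest transcript its share was 44.9% to 53.9% at 30 °C, below 50% in 5 of 14 mice and below that of Crtc3 in 3, and 50.7% to 60.1% at 5 °C.

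**Figure D4:**
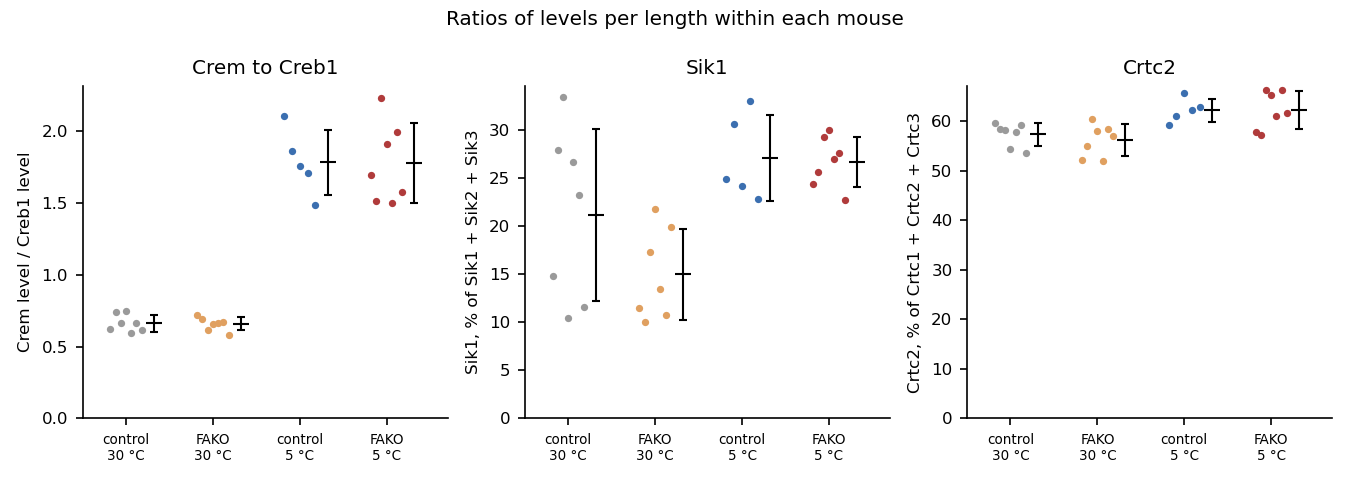
Ratios of levels per kilobase within each mouse (points) with mean and SD: Crem over Creb1, and the percent of the summed SIK level held by Sik1 and of the summed CRTC level held by Crtc2. The Crem to Creb1 ratio is at most 0.744 at 30 °C and at least 1.49 at 5 °C, and the Sik1 share is most scattered in control mice at 30 °C.

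Crem and Sik1 are both known as cAMP-induced feedback genes, and their log2 CPM values were compared within each group of 7 mice, 3 relations in all. Pearson's r was 0.267 in control mice at 30 °C (exact permutation p = 0.634, Spearman's rho -0.04 with exact permutation p = 0.964), -0.781 in mice labelled FAKO at 30 °C (exact permutation p = 0.0194, adjusted over the 3 relations 0.0583) and -0.176 in mice labelled FAKO at 5 °C (exact permutation p = 0.663, rho -0.46 with exact permutation p = 0.302). In the second of these, rho was -0.82 (exact permutation p = 0.0341, adjusted 0.102), and r was -0.620 without the 2 mice farthest from the median. The same step gave r of 0.505 and -0.201 in the other two groups. After adjustment, 0 of the 3 passed 0.05. Across all 26 mice, among 14245 genes with a mean of at least 1 CPM, the genes whose log2 CPM was most like that of Crem were Stam, an endosomal sorting adaptor (Pearson's r 0.9859), Chd1, a chromatin remodeller (0.9826), and Tmf1, a Golgi protein (0.9825). For Sik1 they were Irs2, an insulin receptor substrate and cAMP target (0.9709), Ccnl1, cyclin L1 (0.9338), and Kdm6b, a histone H3 demethylase (0.9333). These describe 26 points that share libraries and the step between the temperatures.

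The other genes of the pathway were taken from 5 lists. The counts called in each list stand beside those of all genes tested. In control mice 31.6% of all genes rose and 33.4% fell, together 65.0%. In mice labelled FAKO 33.7% rose and 34.9% fell, together 68.6%. Of 20 known cAMP target genes, 12 rose and 3 fell in control mice and 14 rose and 2 fell in mice labelled FAKO, with median log2 fold changes of 1.12 and 1.28. Those that changed most in control mice were Dio2, which activates thyroid hormone (log2 fold change 7.00, SE 0.56, adjusted p = 2.46e-11, edgeR with Benjamini-Hochberg), Ppargc1a, the coactivator Pgc-1α (4.07, SE 0.21, adjusted p = 5.21e-15), Nr4a3, an orphan nuclear receptor (3.55, SE 0.42, adjusted p = 3.93e-08), and Gem, a small GTPase (2.69, SE 0.35, adjusted p = 2.03e-07). In mice labelled FAKO they were at 6.63, 3.95, 4.62 and 2.78. All 4 were without overlap between the temperatures in both genotypes. Of all genes, 46.4% were so in control mice and 40.4% in mice labelled FAKO. The 4 were picked for their change in control mice, so the lack of overlap there follows largely from the choice. The 3 that fell in control mice, named after their values were seen, were Rgs2, Gadd45b and Btg2 (-1.87, -1.61 and -1.59). The list was thus not uniform in direction. At 30 °C its median difference with the label was -0.45, against -0.02 for all genes, with 0 of 20 past the test and 4 at an unadjusted p below 0.05.

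Of 13 tested relatives in the ATF/CREB family, 7 rose and 2 fell in control mice and 7 rose and 3 fell in mice labelled FAKO (medians 0.33 and 0.29). Atf5 and Atf4, factors of the integrated stress response, rose by 2.22 (SE 0.20) and 2.18 (SE 0.15) in control mice and, with the FAKO label, by 2.29 and 2.27. Atf6, an endoplasmic reticulum stress sensor, rose by 0.88 (SE 0.09) and 1.04, while Crebl2 fell by 0.84 (SE 0.11) and 0.47. Creb3l3 was not tested. All of these passed at an adjusted p of 1.06e-04 or less in edgeR with Benjamini-Hochberg.

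Of 14 partners of CREB and CRTC proteins, 5 rose and 3 fell in control mice and 7 rose and 1 fell in mice labelled FAKO (medians 0.16 and 0.16). Crebbp, the acetyltransferase that binds phosphorylated CREB, rose by 0.81 (SE 0.07) in control mice and, with the FAKO label, by 0.46. The 14-3-3 genes Ywhab and Ywhae, whose proteins hold phosphorylated CRTCs, rose by 0.60 (SE 0.07) and 0.39 (SE 0.12) in control mice and, with the FAKO label, by 0.84 and 0.49. Ppp3ca, a catalytic subunit of calcineurin, which dephosphorylates CRTCs, fell by 0.52 (SE 0.06) and 0.39. With library size alone, Crebbp (0.14, adjusted p = 0.228) and Ywhae (0.15, adjusted p = 0.0814) no longer passed edgeR's quasi-likelihood test in mice labelled FAKO.

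Of 16 genes of the LKB1 complex, which activates SIKs, and of AMPK-related kinases, 7 rose and 3 fell in control mice and 6 rose and 3 fell in mice labelled FAKO (medians 0.18 and 0.13). Snrk, Nuak2 and Mark3, kinases of the AMPK-related family like the SIKs, rose by 1.56 (SE 0.13), 1.53 (SE 0.25) and 0.92 (SE 0.07) in control mice and, with the FAKO label, by 1.84, 1.58 and 0.81. Stradb, a pseudokinase that partners LKB1, fell by 1.502 (SE 0.09) and 1.36. The kinases therefore moved in both directions. Of 7 tested class IIa histone deacetylases, which are SIK substrates, and MEF2 factors, which they repress, 2 rose and 3 fell in control mice and 1 rose and 3 fell in mice labelled FAKO (medians 0.01 and -0.15), and Mef2b was not tested. Hdac9 and Hdac5 fell by 1.68 (SE 0.17) and 1.60 (SE 0.07) in control mice and, with the FAKO label, by 1.62 and 1.62, Mef2c fell by 0.91 (SE 0.28) and 0.84 with overlapping groups, and Mef2d rose by 0.84 (SE 0.10) and 0.84. In the main fit, 0 genes of the 5 lists passed the test with the label at either temperature or for the difference of the cold responses. For that difference, 1 partner of CREB and CRTC passed as lower with upper-quartile factors, DESeq2, at least 10 counts in every mouse and edgeR's revised test. The same count held without mouse 7, 16, 25 or 26. Library size alone called 1 gene of the deacetylase and MEF2 list lower, and leaving out mouse 7 called 1 gene of the kinase list higher. DESeq2 also called 1 partner lower for the label at 5 °C.

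**Figure D5:**
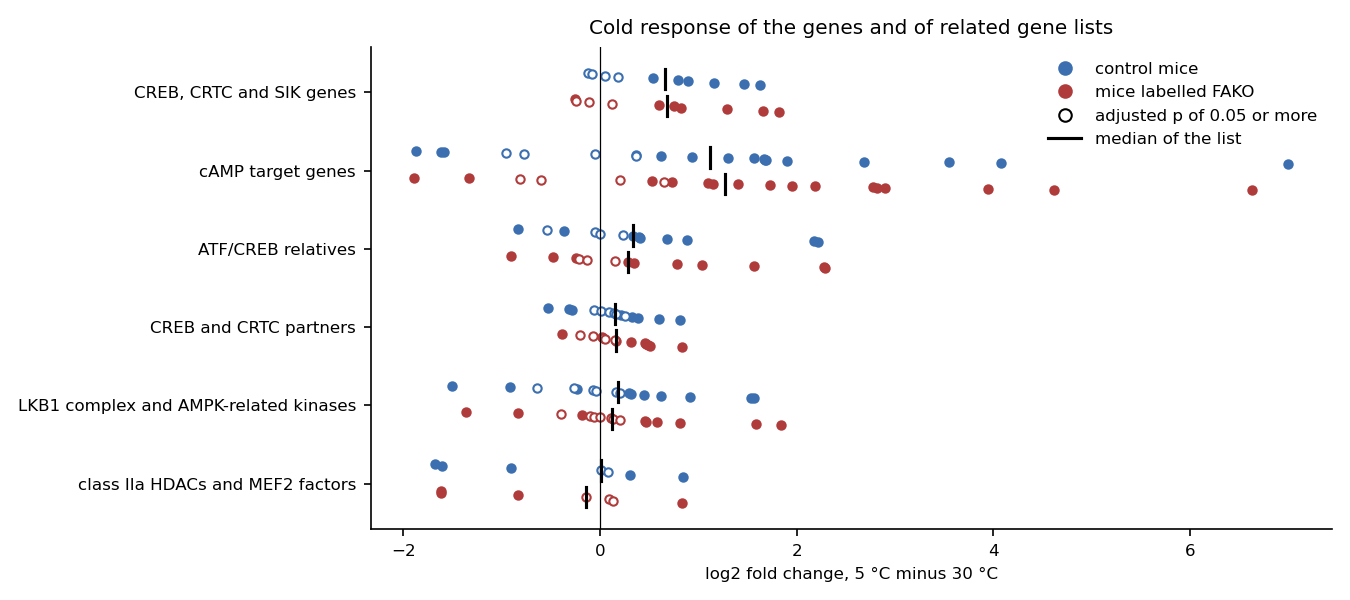
Log2 fold changes between 5 °C and 30 °C of the 10 genes and of the tested genes of 5 related lists in control mice (blue) and mice labelled FAKO (red). Filled points passed edgeR's quasi-likelihood test at an adjusted p below 0.05, and black ticks are medians. The cAMP target genes spread most widely, with Dio2 at 7.00 and 6.63, and the class IIa deacetylases and MEF2 factors have medians near 0.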

How the data were processed

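RNA-sequencing libraries (rRNA-depleted, stranded) were made from BAT of 26 mice. Raw counts per gene were deposited by the authors, who had mapped reads to mm10 (STAR 2.5.2b) and counted them over GENCODE M13 genes (featureCounts 1.5.2). The strand setting is not given in the sources used here. GENCODE M21 gave 50376 of the 50686 identifiers a symbol, and 45737 were in it with the same version. Sik1 was listed with another version. The length used here for its level per kilobase may therefore differ from that of the gene as counted. Mice were grouped by the sample labels. The 10 genes and the lists were chosen with earlier results of these data known.

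Genes passing edgeR's filterByExpr (17286) were scaled with TMM factors and tested in 1 model of the 4 groups, as in the study, with edgeR 4.0.16 (legacy quasi-likelihood test, R 4.3.3). P-values were adjusted by Benjamini-Hochberg over all genes tested, at a threshold of 0.05. Log2 CPM had a prior count of 2, and intervals are at 95%. Levels per kilobase used merged exons of M21. The script was tested on simulated data. The alternatives were library size alone, upper-quartile factors, DESeq2 1.42.0, no filter, at least 10 counts in every mouse, robust empirical Bayes, edgeR's revised test, only the groups compared, the longest transcript as length, and leaving out each mouse. From each list, the genes named are the 4 of largest absolute log2 fold change in control mice that passed the test at a mean of 1 CPM or more, and for Crem and Sik1 the 3 genes most like them.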

Additional observations from a re-analysis of the deposited data

Results flagged for a closer look

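Of the 40 sets of values tested (10 genes in 4 groups), 5 held a mouse whose distance from its nearest neighbour was large for the range of its group, where chance gives about 1 in 20. Creb1 was at 38.9 CPM in mouse 7 of the control mice at 30 °C, where the next lowest mouse had 55.3 CPM. Sik2 was at 218 CPM in the same mouse, where the next highest had 192 CPM. With library size alone, mouse 7 had 50.3 CPM of Creb1, where the next lowest mouse had 52.6 CPM. Its Sik2 was then at 281 CPM, where the next highest mouse had 196 CPM. Sik2 was at 362 CPM in mouse 18 of the control mice at 5 °C, where the next had 269 CPM. Crem was at 44.3 CPM in mouse 27 of the mice labelled FAKO at 5 °C, where the next had 38.8 CPM. Crtc2 was at 8.96 CPM in mouse 16 of the control mice at 5 °C, where the next lowest had 10.8 CPM. With mouse 7 left out, 6 of the 10 genes rose in control mice, as with it.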

How the results depend on the processing

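The 6 members that rose in the cold kept their call in both genotypes under every alternative and with each mouse left out. The count of members called in control mice stayed at 6 with 1 mouse left out and 7 with upper-quartile factors, and in mice labelled FAKO 7 to 8 with 1 mouse left out, 9 with library size alone or upper-quartile factors (Creb1 and Crtc1 added as lower) and 8 with at least 10 counts in every mouse (Crtc1 added). It stayed at 0 in the other comparisons. Library size alone moved the median of all genes from -0.01 to -0.14 and from -0.03 to -0.34 for cold in control mice and mice labelled FAKO, from -0.02 to 0.13 between the genotypes at 30 °C and from 0.04 to -0.15 for the interaction. Among all genes, with 14, 24 and 200 called for the label at 30 °C, at 5 °C and the interaction, DESeq2 called 48, 197 and 488, no filter 9, 15 and 27, library size alone 34 (34 higher, 0 lower), 5 and 278 (0 higher, 278 lower, against 50 and 150), and the groups compared alone 4 and 9. At least 10 counts in every mouse gave 45 at 5 °C. With 1 mouse left out these counts ran from 7 to 92 (92 without mouse 7), 10 to 98 (98 without mouse 22, labelled FAKO, at 5 °C) and 51 to 370 (51 without mouse 8, labelled FAKO, at 30 °C, and 370 without mouse 7). Of the cold calls, those in the upward direction were 4165 of 10408 and 3223 of 11607 with library size alone and 4694 of 12063 in mice labelled FAKO with upper-quartile factors. Uncalled members changed sign with library size alone in control cold Creb1 (-0.059), in FAKO cold Crtc2 (-0.20), at 30 °C Atf1 (0.099), Atf2 (0.14), Crtc1 (0.047), Crtc2 (0.042), Crtc3 (0.12), Sik2 (0.11), Sik3 (0.073), at 5 °C Sik1 (-0.073), Sik2 (-0.028), in the interaction Atf1 (-0.17), Sik2 (-0.13), Sik3 (-0.16). With upper-quartile factors they did so in control cold Creb1 (-0.059), in FAKO cold Crtc2 (-0.034), at 30 °C Atf2 (0.012), Crtc3 (0.0078), Sik2 (0.0027), at 5 °C Sik1 (-0.017), in the interaction Atf1 (-0.024), Sik3 (-0.015). With 1 mouse left out, the sign changed within these ranges: in control cold Creb1 (-0.043 to 0.095), at 30 °C Atf2 (-0.061 to 0.027), Crtc3 (-0.050 to 0.024), Creb1 (-0.0068 to 0.073), Crem (-0.034 to 0.086), Crtc1 (-0.13 to 0.044), Sik2 (-0.053 to 0.026), at 5 °C Sik1 (-0.11 to 0.12), Atf1 (-0.088 to 0.0092), Sik2 (-0.047 to 0.16), Sik3 (-0.072 to 0.016), in the interaction Atf1 (-0.032 to 0.072), Sik3 (-0.0049 to 0.084), Crtc2 (-0.12 to 0.015), Sik2 (-0.019 to 0.18). The cause was not tested. No paired analysis was possible because the groups share no mouse number. Crtc1, with 30 to 105 counts per mouse, was the member most limited by depth.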
